A study of Mus musculus with 20 samples.

Results

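Cells on the second day of muscle differentiation (Day_2) were set against cells on the first day (Day_1), as 2 arrays against 2 arrays out of the 20 samples of the series, over all 20193 gene rows of the time-course set. All cells were C2C12, a mouse myoblast line, untransfected, and the labels name no genetic change in them. Day_2 and Day_1 cells had been kept in differentiation medium with 2% horse serum for 2 days or 1 day. Undifferentiated cells (Undiff, 2 arrays) in growth medium with 20% FBS are given beside them. The time-course set also holds 3 groups of day 2 cells with siRNAs against a long noncoding RNA, which entered the model for its estimate of spread and are not otherwise described. The labels call the 2 arrays of a group biological replicates and do not say whether they came from separate cultures on separate days. The p-values therefore measure the spread between arrays of a group, estimated over the 6 groups of the model. The labels name no batch, and each day's 2 arrays may share their handling, so that day and handling cannot be told apart. C2C12 is an established line grown without nerve, vessel or other cell types, and its cultures hold fused myotubes and unfused myoblasts together. In these bulk samples fewer cells of a type and less RNA per cell cannot be told apart.

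Lowered serum sends myoblasts out of the cell cycle, after which MYOD1 and myogenin switch on the contractile genes and the cells fuse into multinucleated fibres. Differentiating muscle cells also pass through a phase in which the endoplasmic reticulum (ER), the compartment where secreted and membrane proteins fold, comes under load. ER sensors then raise chaperone genes through ATF6 and XBP1, which act at a promoter element called the ERSE, and raise amino acid supply genes through the factor ATF4, which acts at the sequence TGATGNAA. Dividing cells transcribe replication genes through E2F factors and mitotic genes through the element TTTGAA, known as the CHR.

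The ER and ATF4 genes had the lowest list medians on Day_2. Their promoters are shown first because these elements were more common in them than in the promoters of all genes. Sequences are those of RefSeq (GRCm38.p6), in windows from 250 bases before to 50 bases after each gene's start, searched on both strands. The full ERSE, CCAAT and CCACG with any 9 bases between them, was found in 10 of 21 windows of the list of ER folding and unfolded protein response genes (47.6%), against 39 of all 32851 windows (0.119%). This motif was added to the search after the data had been seen. Its 11 sites in those 10 windows are given below with both fixed parts in capitals, in order of the gene's change on Day_2.
Creld2 (chr15:88819520-88819538, minus strand): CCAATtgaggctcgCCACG
Dnajc3 (chr14:118937827-118937845, plus strand): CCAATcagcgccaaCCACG
Pdia6 (chr12:17266491-17266509, plus strand): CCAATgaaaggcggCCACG
Ero1lb (chr13:12565682-12565700, minus strand): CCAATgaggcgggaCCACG
Hspa5 (chr2:34772025-34772043, plus strand): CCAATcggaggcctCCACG
Hsp90b1, site 1 (chr10:86705638-86705656, minus strand): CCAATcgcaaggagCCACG
Hsp90b1, site 2 (chr10:86705533-86705551, plus strand): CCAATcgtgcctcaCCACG
Syvn1 (chr19:6046532-6046550, plus strand): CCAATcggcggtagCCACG
Calr (chr8:84847075-84847093, plus strand): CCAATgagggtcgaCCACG
Canx (chr11:50325800-50325818, minus strand): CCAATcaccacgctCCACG
Derl3 (chr10:75893242-75893260, minus strand): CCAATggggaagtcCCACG

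The ERSE is known from promoters of ER chaperone genes and the list was drawn up from known members of this response, so the 2 facts are not independent. Within the list, genes with and without the full element did not stand apart: the median change was -1.89 for the 10 with it and -1.91 for the 11 without it. The part CCACG alone, which the full element contains, occurred in 18 of the 21 windows (85.7%), against 32.8% of all windows. It was about as common in windows of ribosome biogenesis genes (84%), tRNA synthetases (81.8%) and FOXO and autophagy genes (80.8%), of which the last had a median change of 0.04. Sdf2l1, the member with the largest fall, had CCACG 3 times and no full element in its window.

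The ATF4 sequence TGATGNAA was found in 8 of 25 windows of ATF4 target genes (32%) and in 4 of 11 windows of aminoacyl-tRNA synthetase genes (36.4%), against 3.97% of all windows. The targets were listed as known ones, so their share is not independent of the list. The sites of 4 ATF4 targets and of the 4 synthetases are shown with the motif in capitals and 6 bases on either side.
Trib3 (chr2:152344033-152344052, plus strand): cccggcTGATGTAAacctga
Chac1 (chr2:119351043-119351062, minus strand): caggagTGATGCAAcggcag
Atf3 (chr1:191183430-191183449, plus strand): acttggTGATGCAAgtgcga
Asns (chr6:7693219-7693238, minus strand): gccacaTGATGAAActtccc
Gars (chr6:55037965-55037984, minus strand): ggtgcaTGATGAAAtagcgc
Iars (chr13:49682131-49682150, minus strand): tggaggTGATGCAAtactga
Yars (chr4:129189900-129189919, plus strand): ctcagcTGATGCAAcccgac
Tars (chr15:11399660-11399679, plus strand): accagcTGATGCAAcgggac

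Among ATF4 targets the 8 with the motif had a median change of -1.04 (-1.90 to -0.16) and the 14 without it a median of -0.91 (-2.31 to -0.08), with overlapping ranges. Aldh1l2, the target that fell most, had no window and is in neither group. Of 18 synthetases measured, 11 had a window. The 4 with the motif changed by -1.04 to -0.61 and a median of -0.82 on the log2 scale. The 7 without it in the window changed by -0.93 to 0.59 and a median of -0.01, again with overlapping ranges. Wars, the synthetase that fell most, by 1.66, had no window. Slc7a11, the amino acid transporter with the largest fall, carried the motif on both strands 11 bases apart in its window (chr3:50443564-50443863, minus strand), from -66 to -59 and from -47 to -40 counted from the start base as 0. Both copies are in capitals.
Slc7a11: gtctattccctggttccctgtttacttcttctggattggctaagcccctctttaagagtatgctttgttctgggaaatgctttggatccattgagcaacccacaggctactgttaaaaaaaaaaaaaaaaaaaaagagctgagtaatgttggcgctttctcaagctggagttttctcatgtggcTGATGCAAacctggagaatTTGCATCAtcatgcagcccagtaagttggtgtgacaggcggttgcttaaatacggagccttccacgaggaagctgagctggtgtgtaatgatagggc

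Across all 20193 genes, limma called 4266 genes higher on Day_2 (21.1%) and 6550 lower (32.4%), 10816 in all (53.6%), at an adjusted p under 0.05. Called changes of at least 1 log2, which is a fold change of 2, were rarer and leaned the other way, with 561 genes higher (2.78%) and 181 lower (0.896%), 742 in all (3.67%). Values on Day_2 and Day_1 arrays did not overlap in 16662 genes (82.5%), and arrays of a day correlated at 0.9987 on Day_2 and 0.9976 on Day_1, against 0.9753 to 0.9770 between the days.

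Small changes differed with the level of the gene. Among the 5049 dimmest genes, with mean levels of 3.01 to 6.42 over the 12 arrays, the median change was -0.175, and 29% were called lower and 3.01% higher. Among the 5048 genes with mean levels of 6.42 to 7.63 the median was -0.226, and 48.8% were called lower and 10.1% higher. In the next group, from 7.63 to 9.35, the median was 0.056 and 25.7% were called lower. Among the 5048 brightest genes, from 9.36 upward, the median was 0.044 and 26.3% were called lower, and over all genes the median was -0.121. The split between higher and lower calls followed the scaling: 39.4% of calls were higher with the deposited values, 21.2% after centring each array on its 75th percentile and 56.9% after cyclic loess, an alternative chosen after the data had been seen. Changes of at least 1 log2 were called in 586 genes higher and 197 lower after cyclic loess.

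**Figure D1:**
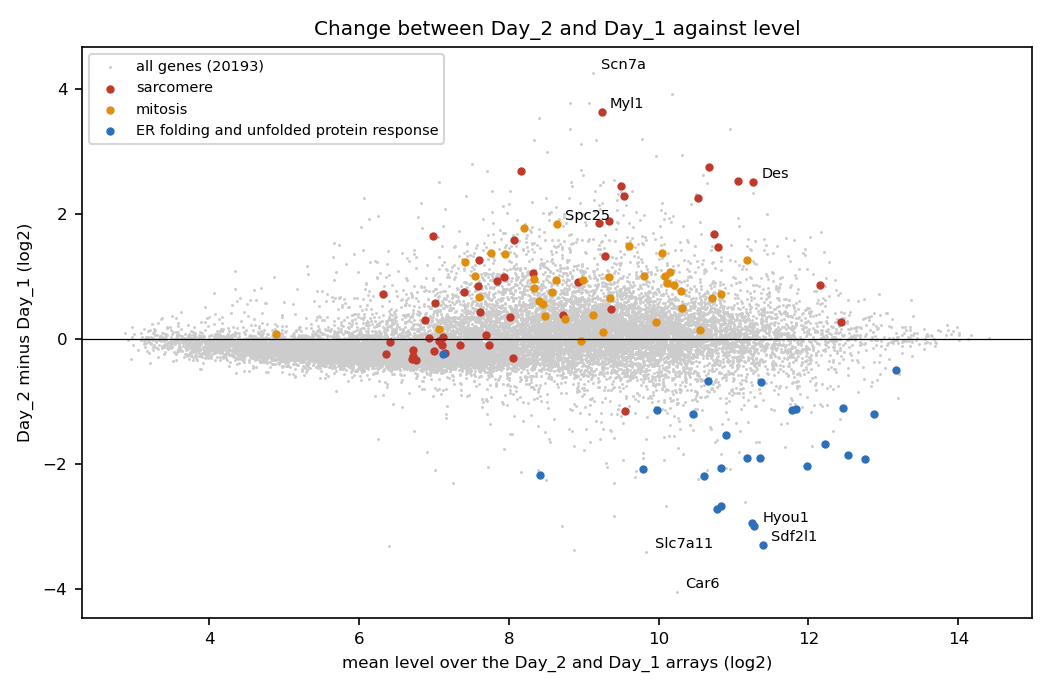
Each grey point is 1 of 20193 genes, placed by its mean level over the Day_2 and Day_1 arrays (log2) and its change, Day_2 minus Day_1 (log2). Sarcomere genes reach 3.63 above the zero line, mitosis genes lie mostly above it, and all 26 genes of the ER list lie below it, down to -3.30.

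Every measured member of the ER folding and unfolded protein response list fell on Day_2. All 26 of 26 were called lower, against 32.4% of all genes, and 22 of them fell by at least 1 log2, against 0.896%. The list median was -1.88, against -0.121 over all genes, and it was below zero under each of the 15 alternatives. Sdf2l1, a component of the ER chaperone complex, had 9.73 and 9.75 on the Day_2 arrays, against 13.02 and 13.06 on the Day_1 arrays (log2). Its change of -3.30 ± 0.10 (SE, n = 2 arrays each, limma adjusted p = 2.35e-09) was a 9.84-fold fall. Hyou1, an ER chaperone of the HSP110 family, had 9.85 and 9.70 on Day_2, against 12.77 and 12.78 on Day_1, a change of -3.00 ± 0.07. For both genes every Day_2 array lay below every Day_1 array and also below the Undiff arrays, which had 10.82 and 10.85 for Sdf2l1 and 10.58 and 10.55 for Hyou1.

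The same course was seen through the functions of the list. Among folding helpers, Creld2 had 9.77 and 9.79 on Day_2, against 12.69 and 12.76 on Day_1. Pdia6, a protein disulfide isomerase, had 9.48 and 9.51 on Day_2, against 12.16 and 12.19 on Day_1. Dnajc3, a co-chaperone that also restrains the ER kinase PERK, had 9.38 and 9.45 on Day_2, against 12.07 and 12.20 on Day_1. These 3 genes changed by -2.95 to -2.68, with every limma adjusted p at or under 7.70e-10. Ero1l, the oxidase that recharges disulfide isomerases, fell by 2.04. The mildest falls in the list were those of Canx, the lectin chaperone calnexin, at -0.51, and of Derl3, which acts in the disposal of misfolded proteins, at -0.25. Derl3 was also the dimmest of the list, and 25 of the 26 genes were called lower after cyclic loess.

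Relative to the mean of the Undiff arrays, the list's median stood at 1.33 and 1.38 on the Day_1 arrays and at -0.39 and -0.44 on the Day_2 arrays. The changes against Undiff use the same arrays as the change between the days and are given only to place the levels. On Day_2 the median gene of the list was therefore below its level in growth medium.

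**Figure D2:**
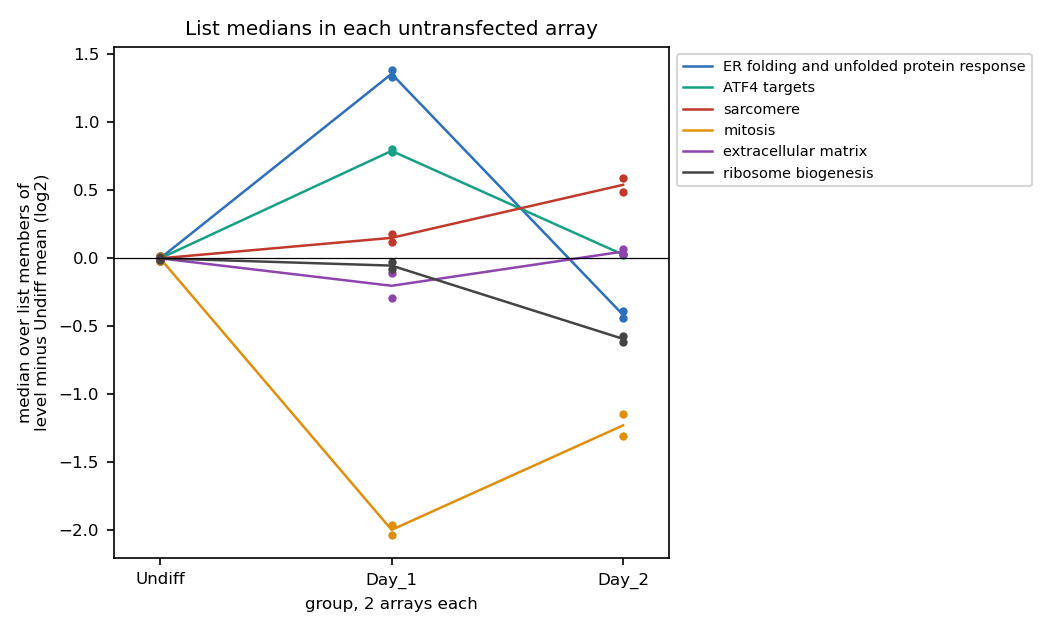
Each point is the median over the measured members of a gene list of the level on 1 array minus the gene's mean over the 2 Undiff arrays (log2), and lines join the means of the 2 arrays of Undiff, Day_1 and Day_2. The ER list peaks on Day_1 at 1.33 and 1.38, the mitosis list is lowest on Day_1 at -2.03 and -1.96, and the sarcomere list is highest on Day_2 at 0.49 and 0.59.

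Targets of ATF4, the factor that raises amino acid synthesis and import when translation is restrained, fell almost as broadly. Of 25 measured, 23 were called lower (92%, against 32.4% of all genes) and 0 higher, 12 fell by at least 1 log2, and the median was -0.98. Aldh1l2, a mitochondrial enzyme of folate metabolism, had 9.70 and 9.99 on Day_2, against 12.46 and 12.46 on Day_1, and its change was -2.62 ± 0.09 (SE, n = 2 each, limma adjusted p = 3.93e-09). Ppp1r15a, the phosphatase subunit that restores translation after stress, had 8.19 and 8.31 on Day_2, against 10.61 and 10.49 on Day_1. Cth, which makes cysteine, had 8.55 and 8.74 on Day_2, against 10.79 and 10.72 on Day_1, and its Undiff arrays had 7.55 and 7.42. Cth therefore remained above its growth-medium level on Day_2, unlike Phgdh, the first enzyme of serine synthesis, which had 9.72 and 9.75 on Day_2, against 11.10 and 11.12 on Day_1, and 10.57 and 10.49 in Undiff cells. Trib3, a pseudokinase induced by ATF4, fell by 1.90. The 2 members not called were Vldlr, a lipoprotein receptor, at -0.16 and Ddit4, an inhibitor of mTORC1, at -0.08.

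Amino acid transporters and tRNA synthetases moved with them. Of 17 transporters 11 were called lower (64.7%, against 32.4% of all genes) and 3 higher, with a median of -0.45. Slc7a11, the cystine importer, had 7.93 and 8.32 on Day_2, against 11.51 and 11.57 on Day_1, a change of -3.41 ± 0.10 (SE, n = 2 each, limma adjusted p = 2.37e-09) and a 10.7-fold fall. Its partner chain Slc3a2 had 12.64 and 12.81 on Day_2, against 13.69 and 13.66 on Day_1. Slc1a4, Slc7a1 and Slc1a5, carriers of neutral and cationic amino acids, fell by 1.41, 1.24 and 1.20. Of 18 synthetases 13 were called lower (72.2%) and 1 higher, with a median of -0.63. Wars, the tryptophan enzyme, had the largest fall, with 10.45 and 10.49 on Day_2, against 12.12 and 12.14 on Day_1. Gars, Eprs, Nars and Iars, the enzymes for glycine, glutamate with proline, asparagine and isoleucine, fell by 0.89 to 1.04.

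Genes of ribosome biogenesis fell by small and even steps. Of 28 measured, 25 were called lower (89.3%, against 32.4% of all genes) and 0 higher. None fell by 1 log2 or more, with a median of -0.54 and a range of -0.94 to -0.13. Gnl3, the nucleolar GTPase nucleostemin, had 10.14 and 10.15 on Day_2, against 11.11 and 11.06 on Day_1. Myc, a driver of this programme, had 10.56 and 10.92 on Day_2, against 11.62 and 11.32 on Day_1, and 10.58 and 10.60 in Undiff cells. The arrays of the 2 days did not overlap for Myc, and its change was -0.73 ± 0.14 (limma adjusted p = 0.0016). Against Undiff, the ribosome list's median was -0.04 on Day_1 and -0.60 on Day_2, so that its fall came between the days and not before Day_1.

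Further metabolic groups were divided or leaned lower. Of 22 targets of NRF2, the factor that controls glutathione and antioxidant genes, 12 were called lower and 4 higher. Hmox1, heme oxygenase, had 9.87 and 9.96 on Day_2, against 11.96 and 12.04 on Day_1. Srxn1, sulfiredoxin, fell by 1.85 and Gclc, which limits glutathione synthesis, by 1.66. In the cholesterol synthesis list 15 of 25 were called lower and 2 higher, with Mvd, of the mevalonate pathway, at 9.20 and 9.24 on Day_2, against 10.50 and 10.44 on Day_1. In the hypoxia and glycolysis list 13 of 28 were called lower (46.4%) and 6 higher (21.4%), with a median of -0.18, nearer to the 32.4%, 21.1% and -0.121 of all genes than the ER list was. The largest fall there was that of Car9, a carbonic anhydrase on the cell surface, which had 7.36 and 7.37 on Day_2, against 9.69 and 9.56 on Day_1. Fatty acid synthesis genes moved less, with 8 of 15 called lower, 1 higher and a median of -0.17. Ero1l stands in both the ER and the hypoxia list.

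**Figure D3:**
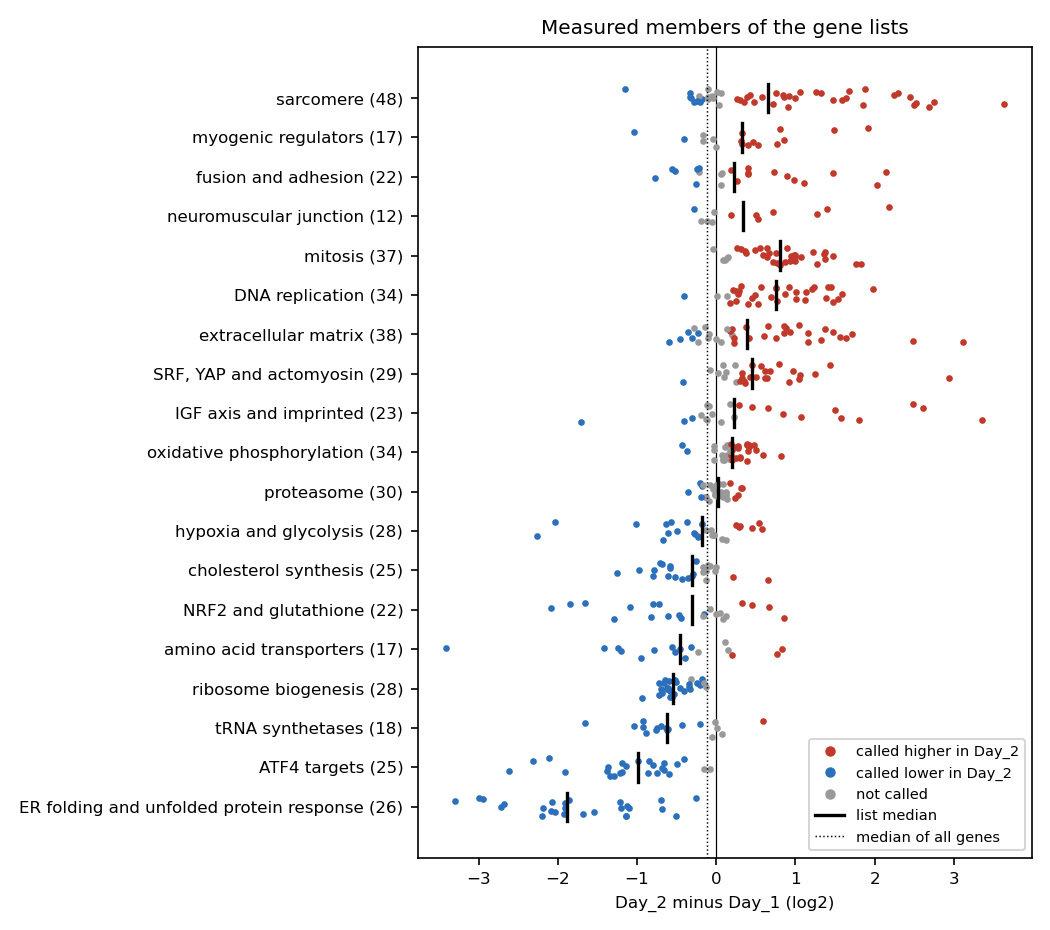
Each point is a measured member of a gene list placed by its change, Day_2 minus Day_1 (log2), with called higher genes in red, called lower genes in blue and the others in grey. Black bars are list medians, from 0.81 for mitosis to -1.88 for the ER list, and the dotted line is the median of all genes at -0.12. Member numbers are in brackets.

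Several of the largest single falls belonged to none of these lists. Car6, a secreted carbonic anhydrase, fell furthest of all genes, with 7.96 and 8.48 on Day_2, against 12.34 and 12.20 on Day_1, a change of -4.05 ± 0.13 (SE, n = 2 each, limma adjusted p = 3.01e-09) and a 16.6-fold fall. Its Undiff arrays had 5.81 and 5.82, so that Day_2 lay between Undiff and Day_1. Ppef1, a calcium-binding protein phosphatase, had 7.11 and 7.24 on Day_2, against 10.57 and 10.54 on Day_1. Avil, the actin-binding protein advillin, had 7.21 and 7.23 on Day_2, against 10.23 and 10.18 on Day_1. Both were at 6.62 to 6.88 in Undiff cells, so they were high on the Day_1 arrays alone among these 3 groups. Cdsn, a skin adhesion protein, and Steap1, of a metalloreductase family, fell by 2.68 and 2.83. The Day_2 arrays of H2-M10.1, a nonclassical MHC gene, differed from each other by more than 1 log2, at 5.38 and 4.10, against 8.12 and 7.99 on Day_1.

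Contractile genes leaned higher on Day_2. Of 48 measured sarcomere genes 31 were called higher, against 21.1% of all genes, 8 were called lower, and 17 rose by at least 1 log2, against 2.78%. The list median was 0.65. Myl1, a myosin light chain of fast and embryonic muscle, had 11.08 and 11.04 on Day_2, against 7.37 and 7.47 on Day_1, a change of 3.63 ± 0.08 (SE, n = 2 each, limma adjusted p = 4.64e-10) and a 12.4-fold rise. Myl4, the embryonic and atrial light chain, had 12.01 and 12.07 on Day_2, against 9.26 and 9.32 on Day_1. Myh3, embryonic myosin heavy chain, had 9.39 and 9.61 on Day_2, against 6.61 and 7.01 on Day_1. Actc1, cardiac alpha-actin, which early skeletal muscle also uses, had 12.30 and 12.34 on Day_2, against 9.66 and 9.94 on Day_1. In all 4 genes the Undiff arrays lay below the Day_1 arrays. Des, the intermediate filament desmin, took another course: it had 12.54 and 12.48 on Day_2, against 9.88 and 10.14 on Day_1, and 12.18 and 12.20 in Undiff cells.

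Several sarcomere genes of mature fibres did not rise, and Myom2 apart, the members not called higher had Day_1 means of at most 8.21. Myl2 of slow and cardiac muscle changed by -0.28 and Mybpc2 of fast fibres by -0.34, both called lower. Myh4, Myh8 and Myh7, heavy chains of fast, perinatal and slow fibres, changed by -0.05, 0.02 and -0.22 and were not called. After cyclic loess 2 and not 8 members were called lower, and 32 were called higher. Of the 8, Myom2, a protein of the M-band, changed by -1.16 and the others by -0.34 to -0.18. The E-box CAGCTG, a binding sequence of myogenic factors, was found in 16 of 44 windows of sarcomere genes (36.4%), against 16.3% of all windows. Among other muscle lists it was found in 8 of 17 windows of calcium handling genes (47.1%) and 4 of 10 of neuromuscular junction genes (40%). Muscle metabolism genes had it in 10 of 30 windows (33.3%), myoblast markers in 2 of 5 (40%) and myogenic regulators in 1 of 16 (6.25%). It was found in 0 of 9 windows of fusion and adhesion genes. Shorter lists with a median change below zero also had such shares. They were 4 of 8 windows of macrophage markers (50%), 5 of 12 of bone and cartilage markers (41.7%) and 4 of 12 of adipocyte markers (33.3%). Id and Notch genes had it in 6 of 17 windows (35.3%). The window of Myl1 (GRCm38.p6, chr1:66945007-66945306, minus strand) is shown because that gene rose most in the sarcomere list. Its E-box, at -224 to -219 from the start base, is in capitals.
Myl1: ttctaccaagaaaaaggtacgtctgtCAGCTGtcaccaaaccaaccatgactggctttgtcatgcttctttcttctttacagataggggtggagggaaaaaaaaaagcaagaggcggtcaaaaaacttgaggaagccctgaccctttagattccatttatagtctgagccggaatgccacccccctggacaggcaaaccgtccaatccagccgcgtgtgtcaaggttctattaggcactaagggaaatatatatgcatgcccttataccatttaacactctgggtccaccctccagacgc

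Among myogenic regulators 11 of 17 were called higher (64.7%, against 21.1% of all genes) and 2 lower, with a median of 0.32. Myod1, which commits cells to muscle, had 9.64 and 9.60 on Day_2, against 7.69 and 7.72 on Day_1, a change of 1.91 ± 0.07 (SE, n = 2 each, limma adjusted p = 7.51e-09). Its Undiff arrays had 9.81 and 9.94, so Day_1 was the low point of the 3 groups. Myog, myogenin, which drives terminal differentiation, had 8.44 and 8.57 on Day_2, against 7.53 and 7.76 on Day_1, and 6.75 and 6.98 in Undiff cells. Myf5, the early myogenic factor, ran against them, with 9.69 and 9.75 on Day_2, against 10.84 and 10.69 on Day_1. Myf6, the factor of mature fibres, changed by -0.40 ± 0.09 (limma adjusted p = 0.0047), a fall that was not called in 2 of the alternatives, and Mef2c, a partner of these factors, by -0.17 ± 0.11 (adjusted p = 0.202).

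Genes of fusion, calcium release and the muscle side of the synapse rose in part. Of 22 fusion and adhesion genes 12 were called higher (54.5%) and 6 lower (27.3%), against 21.1% and 32.4% of all genes. Tmem8c, the fusion protein myomaker, had 11.53 and 11.49 on Day_2, against 9.27 and 9.44 on Day_1, and 8.35 and 8.16 in Undiff cells. Its partner Gm7325, myomixer, changed by 0.06 and was not called. In the calcium handling list 12 of 24 were called higher and 4 lower. Trdn, triadin of the calcium release complex, had 10.00 and 10.00 on Day_2, against 6.93 and 7.11 on Day_1. The calcium pump Atp2a2 ran the other way, with 11.72 and 11.72 on Day_2, against 12.73 and 12.84 on Day_1. In the neuromuscular junction list 7 of 12 were called higher and 1 lower, led by the agrin receptor Lrp4 with 10.33 and 10.35 on Day_2, against 8.07 and 8.25 on Day_1.

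Genes of the muscle metabolism list did not move as a group, while oxidative phosphorylation genes leaned higher. In the muscle metabolism list 7 of 21 were called higher (33.3%) and 6 lower (28.6%), against 21.1% and 32.4% of all genes. Cox6a2, a muscle subunit of cytochrome oxidase, had 8.47 and 8.62 on Day_2, against 10.03 and 9.93 on Day_1, while Cox8b, also a muscle subunit, had 8.42 and 8.64 on Day_2, against 7.48 and 7.64 on Day_1. Of 34 oxidative phosphorylation genes 20 were called higher (58.8%) and 2 lower (5.88%), with a median of 0.20. Sdha, the catalytic subunit of complex II, rose by 0.48, and Uqcrq, of complex III, changed by -0.43.

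**Figure D4:**
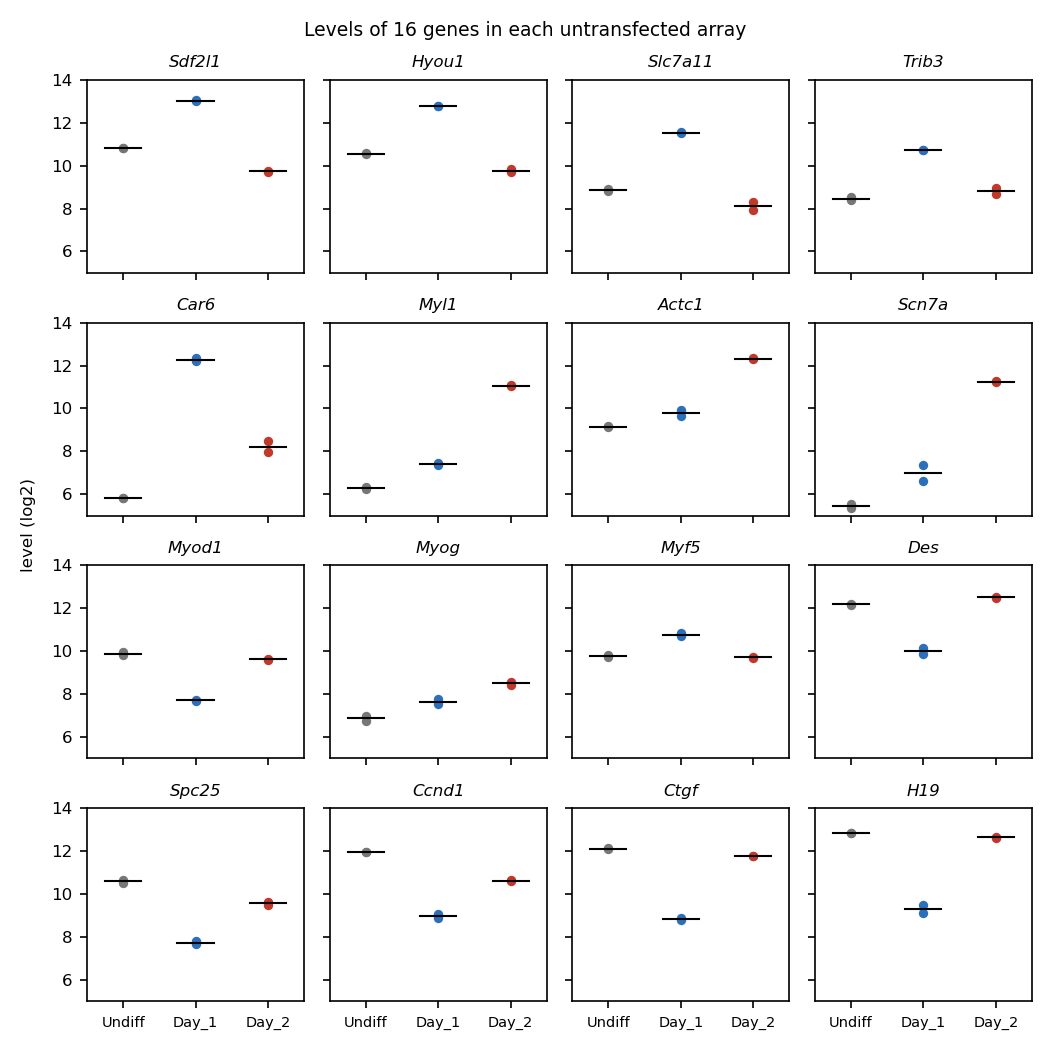
Points are single arrays and bars are means of 2 arrays, as levels (log2) in Undiff, Day_1 and Day_2 cells for 16 genes. Sdf2l1, Hyou1, Slc7a11, Trib3, Car6 and Myf5 are highest on Day_1, Myod1, Des, Spc25, Ccnd1, Ctgf and H19 are lowest on Day_1, and Myl1, Actc1, Scn7a and Myog are highest on Day_2.

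Cell cycle genes were higher on Day_2 than on Day_1. Of 37 measured mitosis genes 32 were called higher (86.5%, against 21.1% of all genes) and 0 lower, with a median of 0.81. Of 34 replication genes 31 were called higher (91.2%) and 1 lower, with a median of 0.76. Spc25, a kinetochore protein, had 9.64 and 9.47 on Day_2, against 7.66 and 7.79 on Day_1, a change of 1.83 ± 0.11 (SE, n = 2 each, limma adjusted p = 2.96e-07). Its Undiff arrays had 10.65 and 10.52. Rrm2, the regulated subunit of ribonucleotide reductase, had 10.60 and 10.43 on Day_2, against 8.48 and 8.60 on Day_1, and 11.85 and 11.90 in Undiff cells. Both were thus lowest on Day_1 and did not reach the Undiff level on Day_2.

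Within these lists the helicase subunits Mcm4, Mcm5 and Mcm6 rose by 1.44 to 1.53, the primase Prim1 by 1.59, and the proliferation marker Mki67 by 1.38. The mitosis genes not called were Cdc25b, Top2a, Cdc20, Ccnb1 and Cdc25c, at -0.04 to 0.15, while Ccnb2, the other B-type cyclin of the list, rose by 0.71. Against Undiff, the mitosis median was -1.98 on Day_1 and -1.23 on Day_2, and the replication median -1.73 on Day_1 and -1.02 on Day_2. The CHR, TTTGAA, was found in 25 of 34 windows of mitosis genes (73.5%), against 17.9% of all windows. The E2F sequence TTTNGCGC was found in 10 of 35 windows of replication genes (28.6%), against 1.38%. Both elements are known from such genes, so these shares are not independent of the lists. The median change was 0.94 for 23 mitosis genes with the CHR (0.08 to 1.83) and 0.55 for 9 without it (-0.04 to 1.77). It was 0.99 for 10 replication genes with the E2F sequence (0.01 to 1.48) and 0.51 for 20 without it (-0.41 to 1.97). Rrm2, the replication gene that rose most, had none in its window. The window of Spc25 (GRCm38.p6, chr2:69206164-69206463, minus strand) is shown because that gene rose most in the mitosis list, with its CHR, 24 to 29 bases after the start base, in capitals.
Spc25: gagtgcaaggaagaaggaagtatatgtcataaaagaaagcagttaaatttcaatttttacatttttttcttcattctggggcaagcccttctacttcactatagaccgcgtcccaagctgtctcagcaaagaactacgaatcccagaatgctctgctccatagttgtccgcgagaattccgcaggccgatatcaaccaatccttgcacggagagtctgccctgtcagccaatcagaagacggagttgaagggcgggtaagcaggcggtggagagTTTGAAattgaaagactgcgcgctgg

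The regulators of cell cycle exit were mixed, with 10 of 18 called higher (55.6%) and 6 lower (33.3%), against 21.1% and 32.4% of all genes. Ccnd1, cyclin D1, which carries cells through G1, had 10.63 and 10.58 on Day_2, against 8.85 and 9.07 on Day_1, and 11.94 and 11.97 in Undiff cells. Cdkn1a, the inhibitor p21, was bright on every array, with 12.80 and 12.77 on Day_2, against 12.62 and 12.62 on Day_1. Its change of 0.17 ± 0.06 (limma adjusted p = 0.0357) was not called in 5 of the alternatives. Of the Id genes, inhibitors of myogenic factors, Id2 had 8.44 and 8.38 on Day_2, against 7.56 and 7.41 on Day_1, and 11.91 and 11.98 in Undiff cells. Id1 rose by 0.54, and Id3 changed by 0.05 ± 0.10 (adjusted p = 0.68). Over the list of Id and Notch genes 10 of 20 were called higher and 4 lower, with the Notch target Hes1 at 8.97 and 8.84 on Day_2, against 7.47 and 7.48 on Day_1.

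Many extracellular matrix genes were higher on Day_2. Of 38 extracellular matrix genes 24 were called higher (63.2%, against 21.1% of all genes), 5 lower and 9 not called, with a median of 0.39. Loxl2, which crosslinks collagen, had 10.48 and 10.56 on Day_2, against 7.34 and 7.47 on Day_1, a change of 3.12 ± 0.10 (SE, n = 2 each, limma adjusted p = 2.37e-09). Dcn, the proteoglycan decorin, had 11.82 and 11.96 on Day_2, against 9.29 and 9.51 on Day_1, and 6.83 and 6.89 in Undiff cells, so that it was higher at each step. The fibrillar chain Col1a1 changed by 0.19 and was not called, and the elastic fibre genes Fbln5 and Eln changed by -0.60 and -0.45. Among matrix proteases and their inhibitors 13 of 25 were called higher and 10 lower, and the plasminogen activators Plat and Plau rose by 2.51 and 2.26.

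Of 29 targets of SRF and YAP, factors that respond to actin tension, 21 were called higher (72.4%, against 21.1% of all genes) and 1 lower. Their median was 0.45. Ctgf, a matrix-associated growth factor, had 11.78 and 11.76 on Day_2, against 8.79 and 8.89 on Day_1, and 12.09 and 12.13 in Undiff cells. Its relative Cyr61 rose by 1.24, and the smooth muscle genes Myl9 and Tagln rose by 1.44 and 1.06. In the list of the IGF axis and imprinted genes 11 of 23 were called higher and 3 lower. H19, an imprinted noncoding RNA next to Igf2, had 12.67 and 12.61 on Day_2, against 9.10 and 9.46 on Day_1, and 12.86 and 12.84 in Undiff cells. Peg3, a paternally expressed zinc finger gene, had 11.88 and 11.91 on Day_2, against 9.22 and 9.34 on Day_1. Igfbp4, an IGF binding protein, ran against them, with 8.002 and 8.03 on Day_2, against 9.70 and 9.75 on Day_1.

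The largest rise of all genes was that of Scn7a, of the sodium channel family, with 11.26 and 11.24 on Day_2, against 6.64 and 7.36 on Day_1, a change of 4.25 ± 0.17 (SE, n = 2 each, limma adjusted p = 1.04e-08) and a 19.1-fold rise. Its Undiff arrays had 5.53 and 5.37, so that it rose in each step. Sema3d, a secreted guidance protein, had 10.52 and 10.48 on Day_2, against 7.16 and 7.12 on Day_1, with 7.42 and 7.34 in Undiff cells, and thus was high on Day_2 alone. Other large rises started from a Day_1 level below Undiff. Pdlim3, a partner of alpha-actinin at the Z-disc, had 12.16 and 12.12 on Day_2, against 8.08 and 8.35 on Day_1, and 11.31 and 11.36 in Undiff cells. Nefl, a neurofilament chain, had 10.85 and 10.57 on Day_2, against 6.94 and 6.92 on Day_1, and 10.08 and 10.03 in Undiff cells. Cmah, which makes a sialic acid, Casp12, a caspase of the ER, and Angpt1, a ligand of the endothelial receptor TIE2, rose by 3.78, 3.53 and 3.19. Filip1, a regulator of filamin, had 6.64 and 6.69 on Day_2, against 6.64 and 6.52 on Day_1, and was not called (0.09 ± 0.09, adjusted p = 0.421).

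Other signalling and stress lists held calls in both directions, beside 21.1% of all genes called higher and 32.4% lower. Of 37 interferon response genes 14 were called higher and 8 lower, with Irf1, an early response factor, up by 1.59 and the RNase Isg20 down to 9.04 and 9.03 on Day_2, against 10.58 and 10.69 on Day_1. Of 27 TGF-beta and BMP genes 13 were called higher and 4 lower, among them Bmp4 at 9.73 and 9.66 on Day_2, against 7.93 and 7.75 on Day_1, and its antagonist Grem1 at 10.12 and 10.21 on Day_2, against 12.07 and 11.90 on Day_1. FGF and WNT genes were called 11 higher and 11 lower of 32, chemokines and cytokines 8 higher and 10 lower of 30, and immediate early genes 8 higher and 6 lower of 24. Of 20 p53 targets 4 were called higher and 8 lower, of 27 FOXO and autophagy genes 6 higher and 7 lower, of 18 heat shock genes 4 higher and 6 lower, and of 30 proteasome genes 5 higher and 4 lower. The proteasome range, -0.35 to 0.32, was the narrowest of the 33 pathway lists.

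Markers of myoblasts were present, and 8 of 10 were called higher (80%, against 21.1% of all genes) and 1, Myf5, lower, with a median of 0.94. Their summed level (log2 of the summed linear values) was 14.45 to 14.47 on Day_2, against 13.45 to 13.49 on Day_1. Of 12 genes of quiescent satellite cells 5 were called higher and 1 lower, led by Cd34 with 10.54 and 10.36 on Day_2, against 7.91 and 8.08 on Day_1. The stem cell factor Pax7 had 8.38 and 8.33 on Day_2, against 7.84 and 7.81 on Day_1. Of 11 fibroblast markers 5 were called higher and 1 lower, among them Dcn, and their summed level was 14.11 to 14.12 on Day_2, against 13.01 to 13.09 on Day_1. Their part in the rise of the matrix genes was not tested.

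Markers of cell types that a C2C12 culture should lack were called lower in part, by less than 1 log2. Of 12 macrophage markers 8 were called lower (66.7%), of 11 adipocyte markers 5 (45.5%) and of 10 endothelial markers 7 (70%). Of 13 bone and cartilage markers 8 were called lower (61.5%) and 3 higher, Spp1 by 1.48, Sox9 by 0.65 and Phex by 0.37. Of all genes 32.4% were called lower, and 48.8% of those with mean levels of 6.42 to 7.63. The median Day_1 levels of these 4 lists were 6.61, 7.29, 6.82 and 7.46. The summed level of the macrophage markers was 10.24 to 10.25 on Day_2, against 10.48 to 10.51 on Day_1, that of the adipocyte markers 10.91 on Day_2, against 11.17 to 11.21 on Day_1, and that of the endothelial markers 10.01 to 10.05 on Day_2, against 10.27 to 10.32 on Day_1. The sum of the bone and cartilage markers, which Spp1 leads, ran the other way, with 12.88 to 12.93 on Day_2, against 12.02 to 12.13 on Day_1. RMA values have no true zero. After cyclic loess 2 macrophage, 3 adipocyte, 1 endothelial and 3 bone and cartilage markers were called lower.

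MicroRNA genes were singled out after their values had been seen. Mature sequences are those of RefSeq (GRCm38.p6), with the seed, bases 2 to 8, in capitals, and they are grouped by locus because neighbours can share a primary transcript. miR-181a and miR-181b share a seed, as do miR-17 and miR-20a and also miR-19a and miR-19b.
mmu-miR-27b-3p (chr13:63300760-63300780, plus strand): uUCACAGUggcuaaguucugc
mmu-miR-24-3p (chr13:63301251-63301272, plus strand): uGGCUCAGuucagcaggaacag
mmu-miR-181a-5p (chr1:137966468-137966490, plus strand): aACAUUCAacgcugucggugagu
mmu-miR-181b-5p (chr1:137966650-137966673, plus strand): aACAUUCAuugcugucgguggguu
mmu-miR-322-5p (chrX:53054306-53054327, minus strand): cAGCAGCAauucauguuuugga
mmu-miR-17-5p (chr14:115043684-115043706, plus strand): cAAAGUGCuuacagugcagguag
mmu-miR-18a-5p (chr14:115043867-115043889, plus strand): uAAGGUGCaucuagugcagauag
mmu-miR-19a-3p (chr14:115044048-115044070, plus strand): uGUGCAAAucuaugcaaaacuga
mmu-miR-20a-5p (chr14:115044183-115044205, plus strand): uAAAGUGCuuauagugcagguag
mmu-miR-19b-3p (chr14:115044358-115044380, plus strand): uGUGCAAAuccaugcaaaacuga

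The values are those of the array's transcript cluster for each microRNA gene, and the mature microRNA was not measured apart. Some of the mature sequences above also come from another gene. For miR-24-3p this is Mir24-2 on chromosome 8, which changed by -0.34. For miR-181a-5p, miR-181b-5p and miR-19b-3p they are Mir181a-2, Mir181b-2 and Mir19b-2, at 0.05, -0.11 and 0.02. Of 295 microRNA genes 40 were called higher (13.6%) and 93 lower (31.5%), both not above the shares of all genes, and 154 had mean levels of at most 6.42. Changes of at least 1 log2 were called in 10 of the 295, all of them higher. Over all genes such changes also leaned higher, with 561 called higher (2.78%) and 181 lower (0.896%). The 3 genes within 792 bases on chromosome 13 rose together. Mir24-1 had 8.61 and 8.63 on Day_2, against 6.78 and 6.63 on Day_1, and its change was 1.92 ± 0.08. Mir27b rose by 1.74 and Mir23b by 1.29. Mir181b-1 and Mir181a-1, 264 bases end to end on chromosome 1, rose by 1.43 and 1.16. On the X chromosome Mir322 rose by 1.53 and its neighbour Mir503, in the same 366 bases, by 0.56. Among muscle microRNA genes Mir206 and Mir133b, neighbours on chromosome 1, rose by 0.82 and 0.58 and Mir1-2 by 0.32. Mir208a changed by -0.22 and was called lower, and Mir1-1, Mir133a-1, Mir133a-2 and Mir499 changed by -0.10, 0.0055, 0.13 and -0.08 and were not called.

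The mir-17-92 cluster, known for promoting proliferation, was lower on Day_2. All 5 measured members within 721 bases on chromosome 14 were called lower. Mir18 had 6.99 and 6.98 on Day_2, against 8.002 and 7.80 on Day_1, and Mir19b-1, Mir19a and Mir20a fell by 0.90, 0.83 and 0.64. Mir17 changed by -0.42 ± 0.14 (limma adjusted p = 0.0273) and was not called in 7 of the alternatives. These changes ran against those of the replication and mitosis genes on the same arrays. The median change was also below zero among the 5049 dimmest genes, at -0.175, and among genes with mean levels of 6.42 to 7.63, at -0.226. The part of this shift among dim genes in the 5 falls was not tested.

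**Figure D5:**
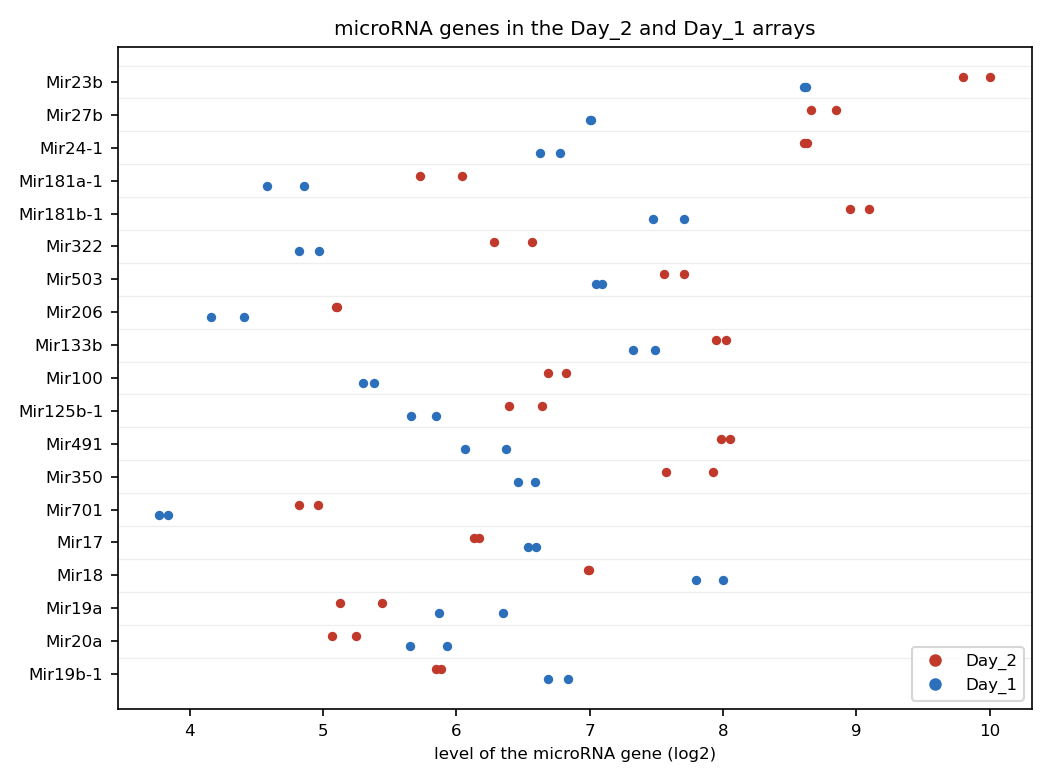
Points are levels (log2) of 19 microRNA genes on the 2 Day_2 arrays (red) and the 2 Day_1 arrays (blue), in rows grouped by locus, with levels comparable within a row only. The rows from Mir23b to Mir701 have both Day_2 points to the right of both Day_1 points, and the 5 mir-17-92 rows from Mir17 to Mir19b-1 have them to the left.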

How the data were processed

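RNA of C2C12 cells was labelled as biotinylated cRNA and hybridised to Affymetrix arrays, per the labels' protocols. What was deposited is a log2 level for each transcript cluster and array, made by the authors with RMA, with limma named for their comparisons, per the submitters' processing notes. The sources used here do not state tool versions or a genome build. In 1 array of the 3 siRNA groups 23 cells of the deposited log2 column held day numbers, which gives that column another unit, and they were set to missing. The deposited sheet names 1 transcript cluster per gene, 23 symbols in it had been turned into dates and were replaced by the gene name, and 0 columns of per-sample values were left unused. Arrays have no read depth, and precision is set by how many there are: over genes, the change between the days had a median standard error of 0.0801 log2.

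The change was computed from the array columns alone, with limma (version 3.58.1, R version 4.3.3), 1 coefficient for each of 6 groups over 12 arrays, and Benjamini-Hochberg adjustment over 20193 genes. All adjusted p-values come from this two-sided fit, values after ± are standard errors, and genes were called at an adjusted p under 0.05. The members and the 40 gene lists (33 pathway and 7 marker lists) were chosen with earlier results of these data known. Named genes are the 15 largest called rises and 15 largest called falls without overlap between the days, up to 5 called members per list with the largest change, and 11 preset regulators. Exceptions, chosen after their values were seen, are the microRNA genes, list members that were not called or moved least, those that ran against their list, Ccnb2, and the genes shown for a promoter motif. RefSeq promoters (GRCm38.p6) were found for 677 of 908 list genes and hairpins for 241 of 295 microRNA genes. Of the sheet's symbols, 17433 are current in that table, 2048 are older names and 712 were not matched. Replicate numbers did not pair the arrays: deviations of same-numbered arrays correlated at over 0.1 in 1 of 15 pairs of groups (range -0.167 to 0.237, and -0.0746 for Day_1 and Day_2). The alternatives tried were other sets of arrays, variance priors, array weights, normalizations, filters and features, a replicate block and each left-out array. Some genes are not analysed here.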

Additional observations from a re-analysis of the deposited data

How the results depend on the processing

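The number of genes called on Day_2 against Day_1, 10816, stayed within 1.5 times of itself under the other fits, scalings and filters, and leaving out 1 array gave 6926 to 9367. Leaving out an array moved the count of genes higher between 3299 and 3824 and the count of genes lower between 3627 and 5543, against 4266 and 6550. The counts without Day_2 replicate 2 (6926) and without Day_1 replicate 2 (7067) were more than 1.5 times smaller. The genes called lower numbered 4349 after another quantile normalization, 11050 with arrays centred on the 75th percentile and 3224 after cyclic loess, which was added after the data had been seen. These scalings moved the median of all genes from -0.121 to -0.041, -0.256 and -0.005. With all 35556 transcript clusters in place of 1 per gene, 942 were called higher and 420 lower by at least 1 log2, against 561 and 181, with more features tested. The replicate block gave 10610 calls (4219 higher and 6391 lower), and the numbers share no pairing. Among named genes only uncalled changes reversed: Mef2c to 0.0038 after quantile normalization and 0.0419 after cyclic loess, and Filip1 to -0.0473 and Id3 to -0.0845 with the 75th percentile. In 81 further cases a named gene lost its call with its direction kept, most often Mir17, Dnaja1 and C1qb, and the cause was not tested. The median of 9 lists took both signs over the 15 alternatives (muscle metabolism, interferon, immediate early, FOXO, heat shock, TGF-beta, FGF and WNT, proteasome and quiescent satellite cell genes), and that of the other 31 did not. With 2 arrays a group, small changes are the least certain.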
